A study of Mus musculus with 8 samples.

Results

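The MHC genes of antigen presentation were examined in the livers of mice lacking Brap in hepatocytes, as 10 named genes out of the 24451 genes in the deposited table. Of these, 5 belong to MHC class II (H2-Aa, H2-Ab1, H2-Eb1, Cd74 and Ciita). The other 5 belong to MHC class I (H2-K1, H2-D1, B2m, Tap1 and Nlrc5). The 10 genes were chosen by their role in presentation, with earlier results of these data known. All 10 passed the filter on low values. Liver RNA was sequenced from 4 Brap LKO mice, which carried floxed Brap alleles (Brap fl/fl) and Albumin-Cre, and from 4 Brap F/F mice, which carried the same floxed alleles without Cre and served as the wild type. All 8 were male C57BL/6 mice, 18 wk old and fasted for 6 h, and a piece of the left lobe was used. Albumin-Cre is active in hepatocytes, not by design in macrophages, dendritic cells, lymphocytes, endothelium or stellate cells, and deletion by cell type was not measured here.

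MHC molecules carry peptides to the cell surface, where T cells inspect them. Class II molecules are pairs of an α and a β chain that present peptides from engulfed material to CD4+ T cells, and they are made mainly by dendritic cells, B cells and macrophages. Class I molecules pair a heavy chain with β2-microglobulin, present peptides from inside the cell to CD8+ T cells, and are made by nearly every cell type, hepatocytes included. Each class has a coactivator of the same protein family that does not bind DNA itself, CIITA for class II and NLRC5 for class I. Both act through factors bound to the X1, X2 and Y boxes of the promoters (the RFX complex, CREB and NF-Y), and interferon-γ induces both.

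The class II chain genes H2-Aa, H2-Ab1 and H2-Eb1 lie close together on mouse chromosome 17, while Cd74 and Ciita lie elsewhere in the genome. The letters to which the promoter factors bind can be read in the RefSeq promoter sequences (GRCm38.p6). Of the 10 members, 6 had a promoter in that table, 2 of class II and 4 of class I. The windows shown are 100 bases long, from 120 to 21 bases before the start of transcription, on the strand of the gene, because class II and class I promoters are known to be read through these boxes. All lie upstream of the annotated gene, that of B2m inside an intron of Patl2 and that of H2-Eb1 inside an intron of the antisense transcript Gm20513. Capitals mark GCAAC (the core of the X1 box), TGACG or TGATG (the core of the X2 box) and ATTGG (the core of the Y box), wherever GCAAC stood 30 to 33 bases, or TGACG or TGATG 24 to 27 bases, before ATTGG. This spacing was chosen after the member sequences were seen. H2-Q10, a secreted class I-like chain of the liver, is shown beside the members because its fold change lay on the other side of 0.
H2-Aa, chr17:34287844-34287943, minus strand: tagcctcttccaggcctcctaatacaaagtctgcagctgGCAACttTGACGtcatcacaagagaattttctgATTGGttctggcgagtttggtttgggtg
H2-Eb1, chr17:34305747-34305846, plus strand: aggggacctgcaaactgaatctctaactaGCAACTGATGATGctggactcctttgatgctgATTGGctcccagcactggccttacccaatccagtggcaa
H2-K1, chr17:34000354-34000453, minus strand: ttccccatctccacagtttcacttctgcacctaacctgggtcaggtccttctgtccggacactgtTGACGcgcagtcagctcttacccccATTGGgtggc
B2m, chr2:122147567-122147666, plus strand: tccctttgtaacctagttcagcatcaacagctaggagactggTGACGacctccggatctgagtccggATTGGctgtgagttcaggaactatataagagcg
H2-Q10, chr17:35469969-35470068, plus strand: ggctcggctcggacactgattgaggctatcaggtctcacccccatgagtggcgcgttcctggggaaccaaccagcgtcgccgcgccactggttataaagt

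Both class II promoters held GCAAC and an X2 core ahead of ATTGG, with a distance of 33 and 26 bases in H2-Aa. In H2-Eb1 the distances were 32 bases from GCAAC and 27 and 24 bases from the overlapping copies of TGATG. The class I promoters of H2-K1, H2-D1 and B2m held TGACG 25 bases ahead of ATTGG and had no GCAAC at the spacing searched. No arrangement was found in the promoters of Tap1 and H2-Q10. At the letters and spacing searched, further class II genes did not keep to this split. H2-Ob held GCAAC 30 bases ahead of ATTGG, and its TGATG lay closer to ATTGG than the spacing searched. H2-DMb1 held TGATG 25 bases ahead of ATTGG without GCAAC. The promoters listed for H2-DMa, which lie inside the annotated gene, held no arrangement. The promoter of Rfx5, the gene of a factor that binds the X box, held none either. Searched on both strands of all 32851 promoters of the table, each reaching from 250 bases before to 50 bases after the start, the arrangement of GCAAC and ATTGG occurred in 0.201%, that of TGACG or TGATG and ATTGG in 0.569%, and both in 0.0213%. Those with both were 7 promoters, of which 3 belonged to class II genes (H2-Aa, H2-Eb1 and H2-Eb2). The others were Aptx, Nasp, 1700048F04Rik and Gm4419. Because the spacing was chosen after the member sequences were seen, the matches of H2-Aa and H2-Eb1 are no test of the arrangement. The single motifs were common, at 35.2% of promoters for GCAAC, 20.8% for TGACG, 39.3% for TGATG and 37.4% for ATTGG. A match of letters is a description and does not show that a factor was bound in these livers.

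Sequencing gave between 26280884 and 33313914 reads on genes per liver. Brap, counted over the whole gene, had 3988 ± 242 (SD, n = 4) normalized counts in Brap LKO and 4186 ± 179 (SD, n = 4) in Brap F/F livers, with overlapping groups. The deletion removes exons 2 and 3, and the counts do not separate exons, so this value does not check the labels. A log2 fold change below is Brap LKO minus Brap F/F on log2(normalized count + 1), from a limma fit with trended variance across the 15352 genes whose mean normalized count reached 5, and a gene was called at a Benjamini-Hochberg adjusted p-value under 0.05. In that fit 102 genes were higher in Brap LKO livers (0.664% of those tested) and 16 were lower (0.104%). The labels' animal numbers fall into a lower and a higher range, with Brap LKO replicates 1 to 3 and Brap F/F replicate 1 in the lower range and the other 4 livers in the higher range, so genotype and range overlap only in part.

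None of the 10 members was called by limma, where 0.769% of all tested genes were called in either direction. At an unadjusted p under 0.05, 5 of 5 class II members were higher in Brap LKO livers and 0 of 5 class I members were, against a background of 9.23% of tested genes higher. The 5 class II members are not separate results. H2-Aa, H2-Ab1, H2-Eb1 and Cd74 varied together over the same livers, with Pearson's r from 0.981 to 0.987 between pairs. The members were also chosen with earlier results known, so the count is no test of enrichment against that background. edgeR's quasi-likelihood test on the recovered reads called 0 members (background 0.703% higher), and DESeq2 called 3, H2-Eb1, Cd74 and Ciita (background 3.02% higher). The median log2 fold change was 0.62 over the class II members and 0.11 over the class I members, beside −0.01 over all tested genes, of which 48% had a value above 0. The plot of the members by liver shows the values behind these numbers.

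**Figure D1:**
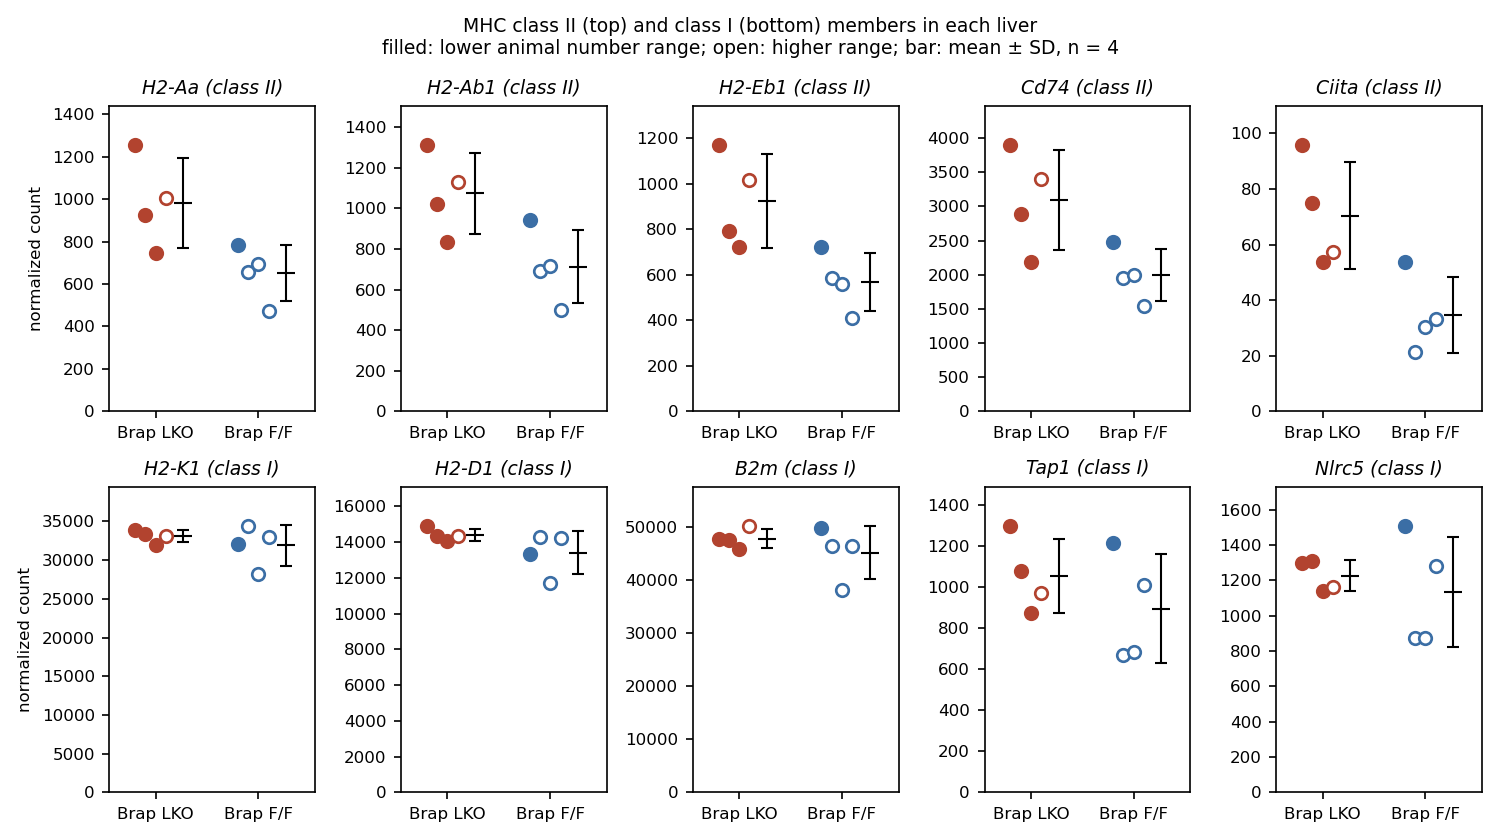
Normalized counts (vertical axes, from 0) of the 5 class II members (top) and 5 class I members (bottom) in each of 4 Brap LKO and 4 Brap F/F livers. Filled points are livers of the lower animal number range, open points those of the higher range, and bars give mean ± SD. For each class II member at least 3 of the Brap LKO livers exceed every Brap F/F liver, while H2-K1, B2m, Tap1 and Nlrc5 have Brap F/F livers among their highest values.

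H2-Aa (ENSMUSG00000036594, mm10 chromosome 17, 34282744 to 34287823) encodes the α chain of the I-A class II molecule. Its normalized counts were 1252.5, 923, 744 and 1005 in Brap LKO replicates 1 to 4 and 783, 655, 695 and 474 in Brap F/F replicates 1 to 4. The groups overlapped through a single pair of livers, Brap LKO replicate 3 lying below Brap F/F replicate 1. The mean was 981 ± 211 (SD, n = 4) against 652 ± 130 (SD, n = 4), 1.51-fold higher, with a log2 fold change of 0.59 (SE 0.18, 95% confidence interval 0.18 to 1.0, limma adjusted p = 0.18).

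H2-Ab1 (ENSMUSG00000073421, chromosome 17, 34257689 to 34269419) encodes the β chain that pairs with H2-Aa. The Brap LKO livers had 1309.8, 1023, 833 and 1128 normalized counts and the Brap F/F livers 941, 694, 716 and 499. The order of the 8 livers was the same as for H2-Aa, with Brap LKO replicate 3 again below Brap F/F replicate 1. The fold was 1.51, and the log2 fold change 0.61 (SE 0.19, limma adjusted p = 0.183). A two-sided exact permutation test, in which the 8 livers can be split in 70 ways and 0.0286 is the smallest p possible, gave p = 0.0571 for H2-Aa and for H2-Ab1.

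H2-Eb1 (ENSMUSG00000060586, chromosome 17, 34305867 to 34316674) encodes the β chain of the I-E class II molecule, which C57BL/6 mice do not assemble because their I-E α gene is defective. Its normalized counts were 1169, 793, 722.4 and 1016 in Brap LKO livers and 721.7, 588, 561 and 411 in Brap F/F livers. No Brap F/F liver reached the Brap LKO livers, but the highest of the former and the lowest of the latter were apart by less than what 1 read is worth. H2-Eb1 had a fold of 1.62 and a log2 fold change of 0.70 (SE 0.19, 95% confidence interval 0.26 to 1.13, limma adjusted p = 0.137; DESeq2 adjusted p = 0.0240; exact permutation p = 0.0286).

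Cd74 (ENSMUSG00000024610) encodes the invariant chain, which fills the class II groove until a peptide takes its place. It had 3894, 2891, 2194 and 3399.9 normalized counts in Brap LKO livers and 2479, 1958, 1993 and 1543 in Brap F/F livers. Brap LKO replicate 3 was again the lowest of its group and lay below Brap F/F replicate 1. The mean was 3095 ± 727 against 1993 ± 383 (SD, n = 4 each), a fold of 1.55 and a log2 fold change of 0.62 (SE 0.19, limma adjusted p = 0.167, DESeq2 adjusted p = 0.0389).

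Ciita (ENSMUSG00000022504, chromosome 16, 10480059 to 10528418), the class II coactivator, was the least abundant member. Its normalized counts were 95.6, 74.8, 53.6 and 57.2 in Brap LKO livers, from 53 to 105 reads, and 53.6, 21.4, 30.5 and 33.4 in Brap F/F livers, from 21 to 47 reads. Brap F/F replicate 1 stood at the level of Brap LKO replicate 3, and the other 3 Brap F/F livers lay below every Brap LKO liver. The fold was 2.03, the largest among the members, and the log2 fold change 1.03 (SE 0.29, 95% confidence interval 0.38 to 1.69, limma adjusted p = 0.141; DESeq2 adjusted p = 0.0325). Ciita shares 329 exon bases (3.45% of its exons) with Dexi on the opposite strand, and the use of strand in counting is not stated. With H2-Eb1 it was one of the 2 class II members of 5 whose groups did not overlap, where 5.48% of tested genes were higher in each Brap LKO liver than in any Brap F/F liver.

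Within each animal number range the class II differences had the same sign but not the same size. In the lower range, where Brap F/F has 1 liver, the mean log2 difference was 0.28 for H2-Aa, 0.14 for H2-Ab1, 0.28 for H2-Eb1, 0.23 for Cd74 and 0.43 for Ciita. In the higher range, where Brap LKO has 1 liver, it was 0.74 for H2-Aa, 0.84 for H2-Ab1, 0.98 for H2-Eb1, 0.90 for Cd74 and 1.01 for Ciita. With the range as a covariate in limma, the log2 fold changes were 0.51, 0.49, 0.63, 0.57 and 0.72 in the same order, and the median of class II was 0.57. In that fit 4 of 5 class II members had an unadjusted p under 0.05, with H2-Ab1 at a limma p of 0.0569, and the limma adjusted p of the 5 ran from 0.314 to 0.414. The part of the range in the class II values cannot be told apart from that of single livers, since 1 group has 1 liver in each range.

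The class I heavy chains and β2-microglobulin were abundant and differed little between livers. H2-K1 (ENSMUSG00000061232, chromosome 17, 33996017 to 34000347), a classical heavy chain, had 33877, 33350, 31985 and 33156 normalized counts in Brap LKO livers and 32091, 34352, 28247 and 32972 in Brap F/F livers. H2-D1 (ENSMUSG00000073411, chromosome 17, 35262730 to 35267499), the other classical heavy chain, had 14870, 14345, 14062 and 14357 against 13354, 14280, 11707 and 14227. In both, the groups overlapped and Brap F/F replicate 3 was the lowest liver of the 8. The log2 fold change was 0.06 for H2-K1 (95% confidence interval −0.16 to 0.27, limma adjusted p = 0.80) and 0.11 for H2-D1 (−0.08 to 0.30, limma adjusted p = 0.543).

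B2m (ENSMUSG00000060802, chromosome 2, 122147686 to 122153083) encodes β2-microglobulin, the light chain of every class I molecule. It had 47807, 47572, 45937 and 50207 normalized counts in Brap LKO livers and 49967, 46589, 38131 and 46420 in Brap F/F livers. Brap F/F replicate 3 was again the lowest, and Brap F/F replicate 1 ranked above 3 of the Brap LKO livers. For B2m the fitted log2 difference was 0.09 (95% confidence interval −0.17 to 0.34, limma adjusted p = 0.730).

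Tap1 (ENSMUSG00000037321, chromosome 17, 34187553 to 34197225) encodes a subunit of the transporter that brings peptides into the endoplasmic reticulum. Its normalized counts were 1297, 1079, 874 and 975 in Brap LKO livers and 1217, 669, 684 and 1013 in Brap F/F livers. The Brap F/F livers split into a higher pair, replicates 1 and 4, within the Brap LKO range, and a lower pair, replicates 2 and 3, below it. Its log2 fold change was 0.27 (95% confidence interval −0.19 to 0.73, limma adjusted p = 0.539).

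Nlrc5 (ENSMUSG00000074151, chromosome 8, 94434356 to 94527272), the class I coactivator, had 1298, 1309.9, 1138 and 1164 normalized counts in Brap LKO livers and 1506, 876, 877 and 1281 in Brap F/F livers. The same pairs appeared among the Brap F/F livers as for Tap1, and replicate 1 was the highest of all 8 livers. The log2 fold change was 0.15 (95% confidence interval −0.23 to 0.54, limma adjusted p = 0.690), and it was −0.02 with the animal number range as a covariate. The upper ends of the intervals of H2-K1, H2-D1, B2m and Nlrc5 lay below the class II median of 0.62 and that of Tap1 above it, and the difference between the classes was not tested.

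Per length, the members spanned a wide range, in RPKM, which are reads per kilobase of exon scaled to the total reads on genes of each liver. B2m averaged 1981 ± 109 in Brap LKO and 1682 ± 230 in Brap F/F livers (SD, n = 4 each), H2-K1 401 ± 18.5 and 346 ± 30.8, and H2-D1 199 ± 9.09 and 166 ± 16.3. These were followed by Cd74 at 65.8 ± 16.9 and 37.9 ± 8.18, H2-Eb1 at 17.0 ± 4.14 and 9.38 ± 2.28, H2-Ab1 at 14.9 ± 3.10 and 8.87 ± 2.47, and H2-Aa at 9.22 ± 2.19 and 5.48 ± 1.17. Lowest were Tap1 at 6.88 ± 1.31 and 5.26 ± 1.76, Nlrc5 at 5.14 ± 0.444 and 4.30 ± 1.35, and Ciita at 0.263 ± 0.0768 and 0.117 ± 0.0505. The class I chains thus stood above the invariant chain and the class II chains in every liver, and H2-Eb1 exceeded H2-Ab1, and Tap1 exceeded Nlrc5, in each liver although their means lay within the spread between livers. H2-Aa and Tap1 changed places between livers, Tap1 being the higher in Brap F/F replicates 1 and 4. This scale divides by all reads of a liver, so its group differences lie above those of the normalized counts.

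The class II chains kept nearly fixed proportions from liver to liver. The ratio of H2-Ab1 to H2-Aa in normalized counts ran from 1.03 to 1.2 over the 8 livers (coefficient of variation 5.17%), and that of Cd74 to H2-Aa from 2.87 to 3.38 (5.42%). The ratio of H2-Aa to Ciita was loose, from 12.4 to 30.7 (36.3%), with the highest value in Brap F/F replicate 2. H2-D1 to H2-K1 ran from 0.415 to 0.440 (2.45%).

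The correlation of each pair of members over the 8 livers was computed, 45 relations in all, with exact permutation tests over the 40320 pairings and Benjamini-Hochberg adjustment over the 45. Among H2-Aa, H2-Ab1, H2-Eb1 and Cd74, the 6 pairs had Pearson's r from 0.981 to 0.987 (permutation adjusted p from 0.000372 to 0.000744) and Spearman's rho from 0.952 to 1 (permutation adjusted p from 0.000744 to 0.00856). Without the 2 livers farthest from the median, r of these pairs was 0.94 to 0.99, and with group means removed 0.96 to 0.97, so the 4 genes ranked the livers alike within groups too. Ciita followed these 4 genes less closely, with r from 0.794 to 0.825 (permutation adjusted p from 0.0541 to 0.0672) and rho of 0.881 (permutation adjusted p = 0.0296).

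Ciita and 2 class I members had high r in pairs that did not pass the adjusted test. Its r with Tap1 was 0.831 (permutation adjusted p = 0.0541, rho 0.738, permutation adjusted p = 0.147), 0.91 with group means removed and 0.60 without the 2 farthest livers. With Nlrc5 its r was 0.708 (permutation adjusted p = 0.151, rho 0.619, permutation adjusted p = 0.199), 0.82 with group means removed and 0.55 without the 2 farthest livers. Within class I, Tap1 and Nlrc5 had r of 0.947 (permutation adjusted p = 0.00797, rho 0.929, permutation adjusted p = 0.0143), and H2-K1 and H2-D1 0.954 (permutation adjusted p = 0.0237, rho 0.81, permutation adjusted p = 0.0817). Of the 25 pairs between the classes, 0 passed an adjusted p of 0.05. The permutations pool both genotypes, and the livers share their libraries and depth between genes, so r is given as a description.

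**Figure D2:**
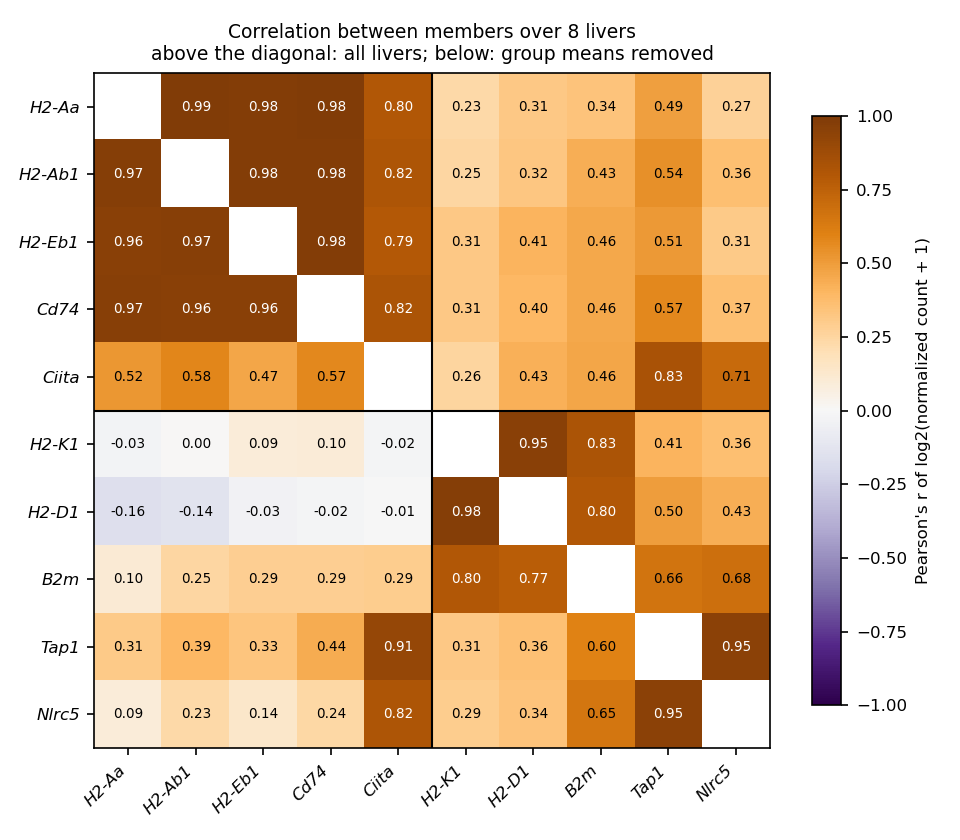
Pearson's r between each pair of members over 8 livers (colour and number), above the diagonal for all livers and below it with group means removed. The 4 class II structural genes form a block near 0.98, H2-K1 with H2-D1 and Tap1 with Nlrc5 form pairs near 0.95, and Ciita correlates with Tap1 at 0.91 once group means are removed.

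The genes whose pattern over the 8 livers was most like the mean of the class II members, out of 12742 genes compared, were Myo6 (r = 0.97), Plekho2 (0.96), Hnrnpu (0.95), Ccdc93 (0.95) and Zfr2 (0.95). Most like the mean of the class I members were Aasdh (r = 0.98), Jrkl (0.97), Uba7 (0.96), B430219N15Rik (0.96) and S1pr2 (0.95). These are the highest of many correlations over 8 livers that share their libraries and are given as descriptions.

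The other genes of the pathway, in 7 lists, numbered 79. Of the 74 tested, limma called 1 higher in Brap LKO livers and 0 lower, with a median log2 fold change of 0.14. For comparison, limma called 0.664% of all tested genes higher. DESeq2 called 3.02% of the genes it tested higher. Its calls among the 74 were not counted, so this share is not to be set against limma's count. It stands beside the single DESeq2 values below. A log2 fold change above 0 was found for 48% of tested genes, and 5.48% had all Brap LKO livers above all Brap F/F livers. The pathway gene called was Rfx5, a DNA-binding subunit of the RFX complex at the X box. Its normalized counts were 515, 428, 494 and 428 in Brap LKO livers and 306, 284, 307 and 353 in Brap F/F livers. Each Brap LKO value exceeded each Brap F/F value. The fold was 1.49 and the log2 fold change 0.58 (SE 0.10, limma adjusted p = 0.0417). The call was lost in 7 of the 8 fits that left out 1 liver (all but that without Brap F/F replicate 4) and with the animal number range as a covariate (limma adjusted p = 0.0993). Of the exon bases of Rfx5, 26.8% overlap the antisense gene B230398E01Rik, which had 6.27 ± 3.52 and 7.53 ± 4.68 normalized counts (SD, n = 4 each).

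**Figure D3:**
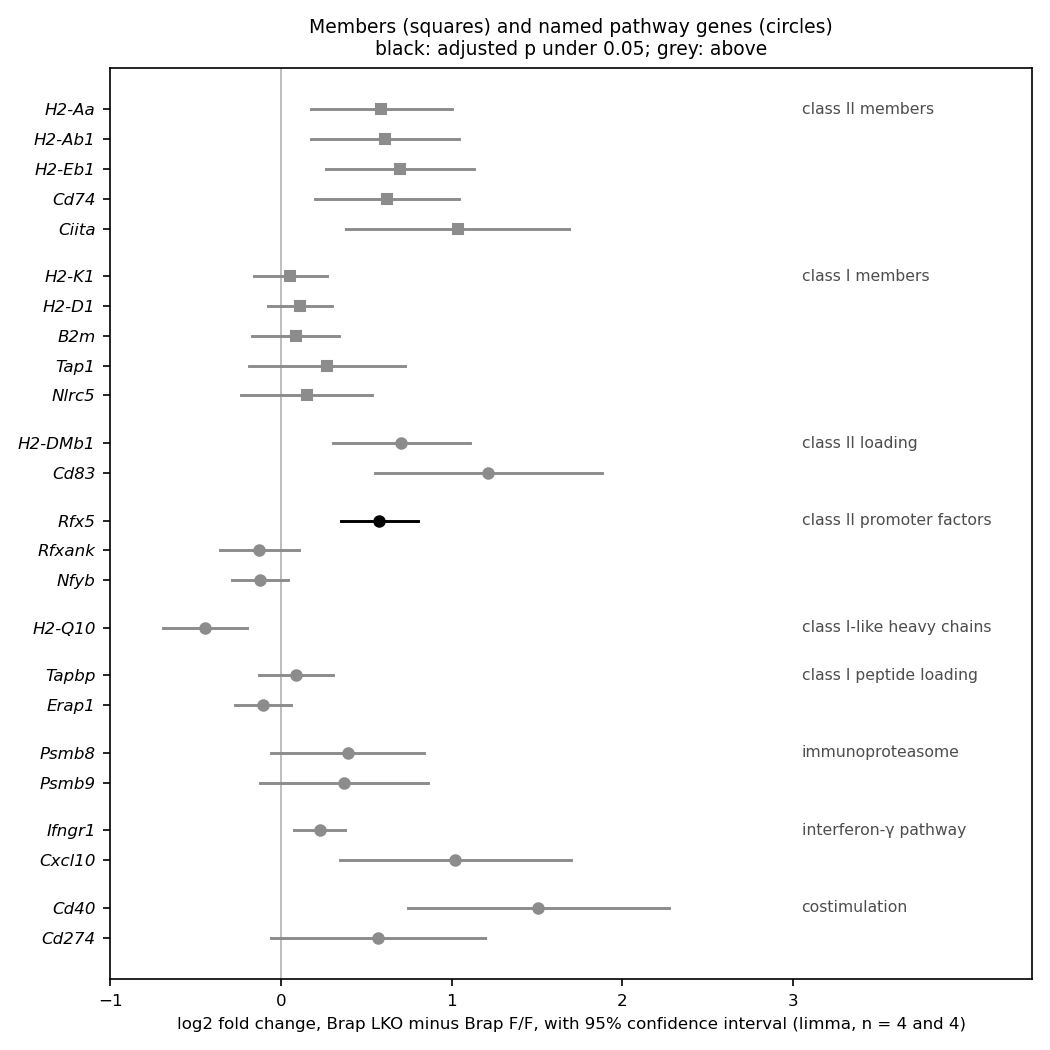
Log2 fold change (horizontal axis, Brap LKO minus Brap F/F) with 95% confidence interval from limma for the 10 members (squares) and 14 further genes of the pathway (circles), grouped by role. Rfx5 is drawn in black for an adjusted p under 0.05, the others in grey. The intervals of the 5 class II members lie above 0, and those of the 5 class I members include 0.

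Of the 7 factors of the class II promoter, the other 6 were not called, and their fold changes lay on both sides of 0, with a median of −0.07 over the list. Rfxank, another subunit of the RFX complex, had a log2 fold change of −0.13 (limma adjusted p = 0.575), and Nfyb, a subunit of NF-Y, −0.12 (limma adjusted p = 0.440). Both turned positive when every liver was given the same total.

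Among the 11 tested genes of class II loading and processing, 0 were called, 10 had a log2 fold change above 0 and the median was 0.31. H2-DMb1, a chain of the H2-DM exchange factor that takes the invariant chain fragment out of the groove, had 94.7, 87.5, 64.7 and 78.0 normalized counts in Brap LKO and 50.2, 42.7, 62 and 43.2 in Brap F/F livers. The groups did not overlap, and the log2 fold change was 0.71 (SE 0.18, limma adjusted p = 0.109, DESeq2 adjusted p = 0.0256). Cd83, a membrane protein of mature dendritic cells that keeps class II molecules at the surface, had 62.9, 50.1, 31.4 and 30.2 against 21.7, 19.3, 11.6 and 18.6. Its groups did not overlap either, with a log2 fold change of 1.21 (SE 0.30, limma adjusted p = 0.102, DESeq2 adjusted p = 0.0109).

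Of the 20 class I heavy chains and class I-like genes, 0 were called, 14 had a log2 fold change above 0 and the median was 0.21. Their summed normalized counts were 89192 to 97538 in Brap LKO and 103370 to 114720 in Brap F/F livers. The 6 genes below 0 included the 2 most abundant, Azgp1 (log2 fold change −0.11, limma adjusted p = 0.578) and H2-Q10. The normalized counts of H2-Q10 were 35595, 37790, 42585 and 42461 in Brap LKO livers and 48877, 55046, 54885 and 56821 in Brap F/F livers. The groups did not overlap, as for 9.87% of tested genes in either direction, and the log2 fold change was −0.45 (SE 0.11, 95% confidence interval −0.69 to −0.20, limma adjusted p = 0.103, DESeq2 adjusted p = 0.000201, where DESeq2 called 4.15% of the genes it tested in either direction). H2-Q10 shares 19.1% of its windows of 50 bases, the read length, with other genes, 14.0% with H2-Q7 and 3.97% with H2-K1. H2-K1 shares 9.63% and H2-D1 12.8% of their windows with any other gene. Reads from shared windows could be split between genes by the counting. H2-M2, a class I-like chain, was near the floor, with 7 to 25 reads in Brap LKO livers and 2 or 3 in Brap F/F livers (limma adjusted p = 0.0791), so no fold is given.

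The 7 genes of class I peptide loading and the 5 of the immunoproteasome and its activator had 0 calls, with medians of −0.00017 and 0.056. Tapbp (tapasin, which holds the empty class I molecule at the transporter) had a log2 fold change of 0.09 and Erap1 (the peptidase that trims peptides to length) one of −0.10. The immunoproteasome subunits Psmb8 and Psmb9 were, like Tap1, higher in Brap F/F replicates 1 and 4 than in replicates 2 and 3. Psmb8 had 1026, 617, 474 and 744 normalized counts in Brap F/F replicates 1 to 4 and from 802 to 943 in Brap LKO livers, and the groups overlapped (log2 fold change 0.39, limma adjusted p = 0.376). Tap1 and Psmb9 lie head to head and share 212 exon bases on opposite strands.

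Of the 18 tested genes of interferon-γ signalling and its targets, 0 were called, 15 had a log2 fold change above 0 and the median was 0.22. The list summed to 24614 to 31039 normalized counts in Brap LKO livers. In Brap F/F replicates 1 to 4 the sums were 32237, 18228, 19242 and 28651. Iigp1, the most abundant of the list, had a mean log2 difference of −0.52 in the lower animal number range and 0.93 in the higher. Cxcl10, a chemokine that draws T cells, had 89.3, 78.2, 101 and 79.0 normalized counts in Brap LKO and 62.7, 23.4, 34.7 and 60.8 in Brap F/F livers. The groups did not overlap (log2 fold change 1.02, SE 0.30, limma adjusted p = 0.159, DESeq2 adjusted p = 0.0441). Ifngr1, a chain of the interferon-γ receptor, had groups that did not overlap and a log2 fold change of 0.23 (SE 0.07, limma adjusted p = 0.162). Ifng itself had 0 reads in every Brap LKO liver and 1 to 3 reads in Brap F/F livers, at or under the 3 reads that a count of 0 allows, so its level could not be compared at this depth.

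Of the 6 tested genes of costimulation and checkpoints, 0 were called and the median was 0.44. Cd40, a receptor of antigen-presenting cells through which T cells license them, had 27.3, 17.8, 15.2 and 13.5 normalized counts in Brap LKO and 5.70, 4.07, 4.20 and 9.81 in Brap F/F livers. The groups did not overlap (log2 fold change 1.51, SE 0.34, limma adjusted p = 0.0853, DESeq2 adjusted p = 0.0267). Cd274, which encodes PD-L1, had a log2 fold change of 0.57 (limma adjusted p = 0.360) and overlapping groups.

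Class II is carried by few of the cells in a liver, so markers of those cells are given beside it. Over all tested genes, 48% of log2 fold changes lay above 0 and limma called 0.664% higher. In bulk RNA, a different number of cells of a type and a different amount of RNA per cell cannot be told apart. The summed normalized counts of the 8 B cell markers were 115 to 249 in Brap LKO livers and 83.2 to 116 in Brap F/F livers, with 8 of 8 fold changes above 0, a median of 0.59 and 0 called. The 10 dendritic cell markers summed to 405 to 520 against 347 to 444, with 8 of 9 tested above 0 and a median of 0.76. Of these 1 was called, Itgax (log2 fold change 1.52, limma adjusted p = 0.0402), the integrin chain CD11c. The 2 most abundant, Zbtb46 and Clec9a, had log2 fold changes of 0.15 and −0.24 with overlapping groups (limma adjusted p = 0.604 and 0.603). The 10 markers of monocytes and recruited macrophages summed to 2992 to 4859 against 2407 to 3264. Of their fold changes 10 of 10 lay above 0, with a median of 0.67 and 2 called, Cx3cr1 (2.75, limma adjusted p = 0.0155) and Gpnmb (2.20, limma adjusted p = 0.0480). Gpnmb had 17.8 to 36.4 normalized counts in Brap LKO and 3.15 to 11.8 in Brap F/F livers, so its fold change rests on few reads.

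Of the other 6 lists, 5 had a median above 0 and that of hepatocytes lay below it. The 10 Kupffer cell markers summed to 6434 to 11499 in Brap LKO and 6671 to 9905 in Brap F/F livers, with 8 of 10 above 0, a median of 0.20 and 0 called. The 11 T and NK cell markers summed to 163 to 243 against 110 to 196, with 8 of 9 tested above 0, a median of 0.64 and 0 called, and the 8 of sinusoidal endothelium to 8154 to 11309 against 6911 to 10495, with 8 of 8 above 0, a median of 0.16 and 0 called. Stellate cell markers had 6 of 8 above 0, a median of 0.38 and 1 called, Pdgfrb (0.91, limma adjusted p = 0.0494). Cholangiocyte markers had 7 of 7 above 0, the highest median of the marker lists at 0.95, and 1 called, Cftr (6.07 to 17.7 normalized counts against 0 to 2.10, limma adjusted p = 0.0331). The 8 hepatocyte markers, which the tissue label calls for, held the largest sums, 2220600 to 3088600 against 2816400 to 4276100, with 6 of 8 below 0, a median of −0.30 and 0 called. No marker of these lists was at 0 reads in all livers, and the part of any cell type in the class II values was not tested.

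**Figure D4:**
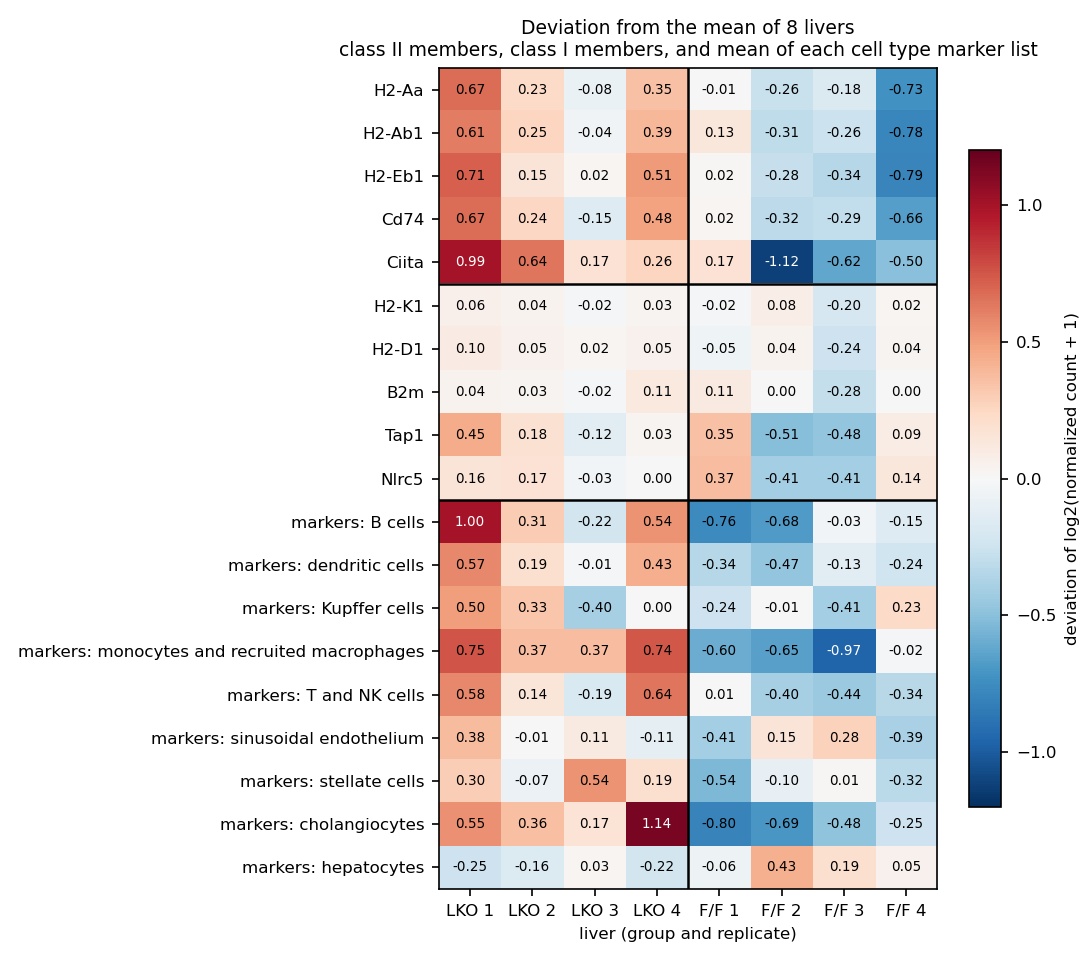
Deviation of log2(normalized count + 1) from the mean of 8 livers (colour and number) for each member and, below, the mean over each cell type marker list, with 4 Brap LKO livers on the left and 4 Brap F/F livers on the right. The class II rows are highest in Brap LKO replicate 1, where the B cell, dendritic cell, Kupffer cell, monocyte and macrophage, and endothelium marker rows are also at their highest, and the H2-K1, H2-D1 and B2m rows stay near 0 except in Brap F/F replicate 3.

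The liver order of class II recurred in part among the markers. Brap LKO replicate 1 had the highest values of H2-Aa, H2-Ab1, H2-Eb1, Cd74 and Ciita, and the largest sum of 5 of the 9 marker lists (B cells, dendritic cells, Kupffer cells, monocytes and recruited macrophages, and sinusoidal endothelium). Over the 8 livers, the mean of the class II members followed the mean of T and NK cell markers most closely, with Pearson's r of 0.908 (Spearman's rho 0.881, r 0.786 with group means removed). It was followed by dendritic cells (r 0.847, rho 0.81, 0.535 with group means removed), and hepatocyte markers ran the other way (r −0.813, rho −0.929, −0.58 with group means removed). B cells had r of 0.711 (rho 0.643) and monocytes and recruited macrophages 0.696 (rho 0.738), but with group means removed these were 0.319 and −0.0604. Without the 2 livers farthest from the class II median, r was 0.925 for T and NK cells, 0.816 for dendritic cells, −0.975 for hepatocytes, 0.65 for B cells and 0.823 for monocytes and recruited macrophages. For the other 4 lists r over the 8 livers was 0.395 (Kupffer cells), 0.311 (sinusoidal endothelium), 0.424 (stellate cells) and 0.695 (cholangiocytes). With group means removed, r was 0.211, 0.0742, −0.399 and −0.0173 in the same order. Without the 2 farthest livers it was 0.472, −0.581, 0.0794 and 0.775. The livers share their libraries and normalization between lists, so these 9 relations are descriptions. Among the Brap F/F livers, class II was highest in replicate 1, in the lower animal number range, and for H2-Aa, H2-Ab1, H2-Eb1 and Cd74 lowest in replicate 4. Leaving out Brap LKO replicate 1 took the class II median from 0.62 to 0.51, and leaving out Brap LKO replicate 3 took it to 0.78.

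**Figure D5:**
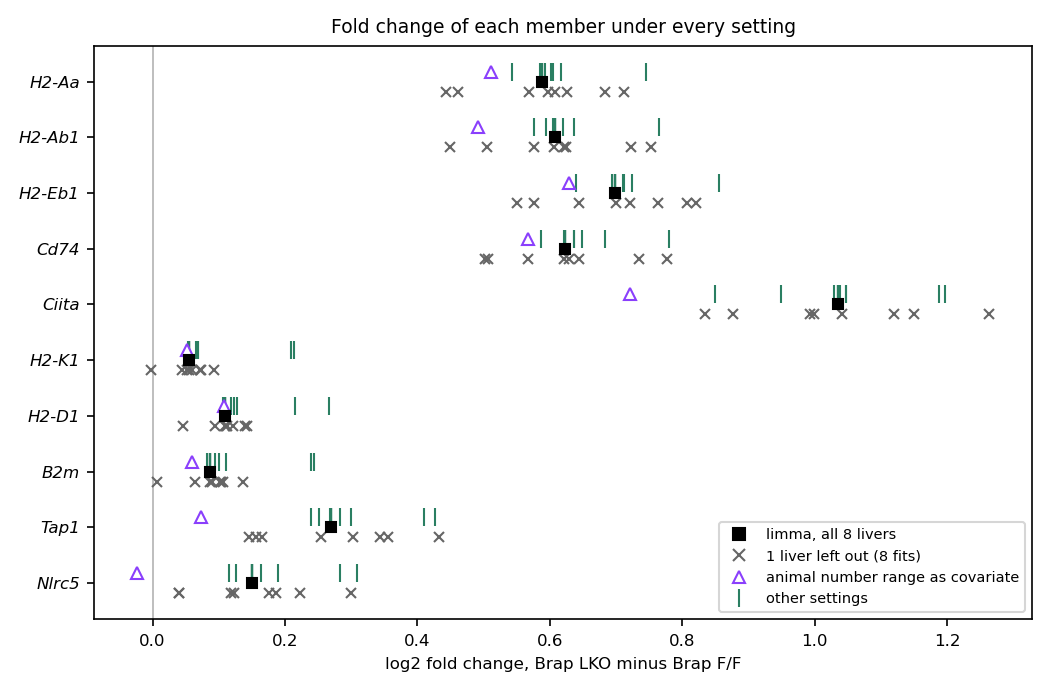
Log2 fold change (horizontal axis, Brap LKO minus Brap F/F) of each member in limma with all 8 livers (black squares), with 1 liver left out (crosses), with the animal number range as a covariate (triangles) and under the other settings (ticks). Each class II member stays above 0 under all 22 other settings, and so do H2-D1, B2m and Tap1, whereas H2-K1 is −0.0018 without Brap F/F replicate 3 and Nlrc5 −0.02 with the range as a covariate.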

How the data were processed

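In the deposited table the signal of a gene is its normalized count: the authors scaled the reads on each gene by the size factor that DESeq2 gave that liver. Their RNA came from TRIzol and RNeasy columns, their libraries from the NuGEN Universal Plus mRNA chemistry, and their single-end reads, 50 bases long, were placed on mm10 by STAR 2.6.0c. What counted the reads, with which annotation release and whether by strand, is not given in the sources used here. Every value (100%, tolerance 0.01) was a whole multiple of what 1 read is worth in its liver, so reads were recovered, 26280884 to 33313914 per liver. Library molecules were not tagged, and floors cover counting error only. All 8 columns of livers were used and 0 were left out. A deposited DESeq2 comparison, which holds means, log2 fold changes, standard errors, p-values and fold changes, was not used.

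log2(normalized count + 1) was compared with limma 3.58.1 in R 4.3.3, without covariates, and the design followed the 2 groups of the study with its threshold of 0.05. Since a normalized count is no longer a count, DESeq2 1.42.0 (the study's test) and edgeR 4.0.16 were run on the recovered reads as alternatives. The other alternatives were pseudocounts of 0.5 and 5, no filter or a minimum mean of 20, other scalings and limma options, a block for the replicate number, a covariate for the animal number range, an adjusted p under 0.1 and leaving out each liver. The limma and edgeR fits were tested on simulated reads, with changes larger in size than the fold change of any member. How often changes of the members' size are found was not tested. Each liver is from a separate mouse by its label, and the replicate numbers are not stated to pair the groups.

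The members and lists were chosen with earlier results of these data known. Genes named are Brap, the members, in each further list those called and up to 4 others (the 2 most abundant and the 2 with the smallest p), markers that were called or most abundant, and the 5 genes most like each class, and values are not given for each of them. Positions are from GENCODE M21, in which 24430 of the 24451 genes were found. Figures and correlations were made in Python 3.11.15 (scipy 1.17.1, numpy 2.4.6, pandas 2.3.3, matplotlib 3.10.9).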

Additional observations from a re-analysis of the deposited data

Results flagged for a closer look

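Among the 140 groups of 4 livers formed by the 70 named genes, a liver stood far from the other 3 in 9 groups, where chance gives about 7 at 1 in 20, and none of the 9 was an MHC member. In Brap LKO replicate 4, Nfyb had 773.78 normalized counts (the nearest liver of the group 706.79) and Iigp1 15013 (10990). In Brap LKO replicate 3, Psmb8 had 802.28 (929.36) and Cftr 6.0702 (16.141), and in Brap LKO replicate 2, Zbtb46 had 263.35 (223.16). In Brap F/F replicate 4, Erap1 had 3735.4 (4188), Cx3cr1 20.605 (12.614) and Cd3e 6.8684 (24.408), and in Brap F/F replicate 3, Rfxank had 312.21 (396.63).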

How the results depend on the processing

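The class II median log2 fold change stayed between 0.51 (without Brap LKO replicate 1) and 0.78 (the same total per liver) and the class I median between 0.04 (without Brap F/F replicate 3) and 0.27 (the same total per liver), under 22 other settings. Giving every liver the same total moved the median of all tested genes from −0.01 to 0.15, and the class medians are to be read against it. Members past the threshold numbered 3 with DESeq2 and 0 under each other setting. Genes higher in Brap LKO livers, 102 with limma, numbered 62 with quantile normalization, 459 with the same total per liver, 185 with arrayWeights, 455 with DESeq2, 283 at an adjusted p under 0.1, and 11 (without Brap LKO replicate 1) to 178 (without Brap F/F replicate 4) with 1 liver left out. Genes lower, 16 with limma, numbered 9 at a minimum mean of 20, 39 with arrayWeights, 170 with DESeq2, 64 at an adjusted p under 0.1, and 4 (without Brap F/F replicate 2) to 54 (without Brap F/F replicate 4) with 1 liver left out. Fold changes that turned sign were small: Brap to 0.0082 with quantile normalization and 0.086 with the same total, Nfyb to 0.035, Rfxank to 0.031 and Erap1 to 0.053 with the same total, Nlrc5 to −0.023 with the animal number range, and H2-K1 to −0.0018 without Brap F/F replicate 3 (up to 0.092 without Brap F/F replicate 2). The call of Rfx5 was also lost without the mean-variance trend (limma adjusted p = 0.0593) and with the replicate block (0.0771). With all 8 livers, calls were also lost with quantile normalization for Itgax, Gpnmb, Pdgfrb and Cftr (limma adjusted p from 0.0594 to 0.0674), with the animal number range for Itgax (0.0755), with the replicate block for Gpnmb and Cftr (0.0659 and 0.0771), without the mean-variance trend for Gpnmb and Pdgfrb (0.0584 and 0.0786), at a pseudocount of 0.5 for Gpnmb and Pdgfrb (0.0505 each) and at a minimum mean of 20 for Pdgfrb (0.0549). With 1 liver left out, Itgax, Gpnmb and Pdgfrb lost their calls in each fit except that without Brap F/F replicate 4, Cftr in those without Brap LKO replicate 1, 2 or 4 or Brap F/F replicate 1 or 2, and Cx3cr1 in those without Brap LKO replicate 1 or 3 or Brap F/F replicate 2. The same-numbered livers deviated together with correlations of −0.13, 0.0034, 0.20 and 0.29, where differently numbered livers ranged from −0.29 to 0.20. Whether the numbers pair the livers cannot be told from these few values. The replicate block gave 80 genes higher, 15 lower, 0 members and a class II median of 0.62. The causes of these differences were not tested. With 4 livers a group, the interval of Tap1 leaves room for a difference of the size seen in class II or for none, and Ciita rests on 21 to 105 reads a liver.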
